A study of Mus musculus with 6 samples.

Results

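The thin filament of the cardiac sarcomere was examined at the RNA level through 10 genes, chosen by name from the 54532 genes of the deposited expression table. They were the troponin genes Tnnt2, Tnnt1, Tnni3, Tnni1 and Tnnc1, the tropomyosin genes Tpm1 and Tpm2, and the actin genes Actc1, Acta1 and Acta2. All 10 were present once in the table. The hearts came from mice in which Mrps5, which encodes a small-subunit protein of the mitochondrial ribosome, was deleted in cardiomyocytes (cKO, Mrps5 fl/fl; MCM, n = 3), and from Mrps5 fl/fl controls (Ctrl, n = 3). MCM is a transgene in which the alpha-MHC promoter drives MerCreMer, a Cre recombinase activated by tamoxifen, so that recombination is directed to cardiomyocytes and not to the other cells of the heart. Both groups carried loxP-flanked Mrps5 alleles. Per the labels, both received 45 mg/kg tamoxifen per day on 5 days from 8 weeks of age, and tissue was taken 12 weeks later. The Ctrl mice had no MCM transgene, so effects of Cre itself and of the loss of Mrps5 cannot be told apart in these groups.

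The thin filament is a polymer of actin along which tropomyosin coiled coils and troponin complexes are spaced. Troponin T anchors the complex to tropomyosin, troponin I holds the filament in the off state, and troponin C binds the calcium that releases it. Most of these proteins come in isoforms from separate genes. The adult ventricle uses cardiac troponin T (Tnnt2), cardiac troponin I (Tnni3), the slow and cardiac troponin C (Tnnc1), alpha-tropomyosin (Tpm1) and cardiac alpha-actin (Actc1). Slow skeletal troponin I (Tnni1), skeletal alpha-actin (Acta1) and smooth muscle alpha-actin (Acta2) are used earlier in heart development. Acta1 and Acta2 are also well known from hearts under load. Tnnt1 encodes slow skeletal troponin T and Tpm2 beta-tropomyosin, another isoform of the developing heart and of slow muscle.

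The 3 muscle actin genes held both the largest increase among the members and a gene that did not pass the test. The 250 bases before their RefSeq transcription start sites are shown because muscle actin genes are known targets of serum response factor. This factor binds the CArG box. The sequences are from RefSeq (GRCm38.p6), run 5′ to 3′ on the strand of the gene, which is minus in all 3, and lie at chr8:123894776-123895025 for Acta1, chr2:114052876-114053125 for Actc1 and chr19:34255374-34255623 for Acta2. Capitals mark a CArG box in its strict form, CCWWWWWWGG, where W is A or T.
Acta1: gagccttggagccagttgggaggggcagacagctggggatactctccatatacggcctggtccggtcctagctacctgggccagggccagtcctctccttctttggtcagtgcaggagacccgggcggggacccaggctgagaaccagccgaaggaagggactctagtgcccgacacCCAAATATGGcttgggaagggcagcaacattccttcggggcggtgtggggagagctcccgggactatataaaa
Actc1: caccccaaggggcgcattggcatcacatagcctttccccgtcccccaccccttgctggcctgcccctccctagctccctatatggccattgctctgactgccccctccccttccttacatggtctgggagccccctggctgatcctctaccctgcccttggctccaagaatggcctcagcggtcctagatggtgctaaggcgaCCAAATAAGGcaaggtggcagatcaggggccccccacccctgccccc
Acta2: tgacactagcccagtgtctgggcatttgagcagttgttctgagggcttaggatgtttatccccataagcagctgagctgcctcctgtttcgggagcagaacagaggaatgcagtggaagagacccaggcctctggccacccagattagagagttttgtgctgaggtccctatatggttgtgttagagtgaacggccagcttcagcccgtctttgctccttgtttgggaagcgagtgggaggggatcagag
The CArG box of Acta1 lay at bases -73 to -64 and that of Actc1 at -47 to -38, counted back from the RefSeq start site. These RefSeq starts differ from the deposited gene ends of Acta1 (123894751), Actc1 (114053548) and Acta2 (34255336). The Actc1 window lies inside its deposited gene span, so the positions hold for the RefSeq starts only. The strict form of the box was not found in the Acta2 window, which says only that these letters are not in these bases. The Acta2 window holds ccctatatgg and ccttgtttgg, in which a C or G stands among the A and T bases. Such looser forms also stand in the Actc1 window (ccctatatgg) and in the Acta1 window (ccatatacgg). They were not searched for and are not in capitals. Of 32851 RefSeq promoters searched in the same window on both strands, 482 (1.47%) held a CArG box of the strict form. The M-CAT motif (CATTCC, 12.6% of all promoters) was found in Acta1 and, on the reverse strand, in Acta2, Tnnc1 and Tpm1, as well as in the first promoter entry of Tnnt2, which also held the only GATA motif among the members (AGATAA on the reverse strand, 9.99% of all promoters). No member held a MEF2 site, which 0.508% of all promoters had. These matches are descriptions of sequence and no measurement of binding was made.

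The hearts were first checked against their labels. Mrps5 measured 5.20, 6.45 and 6.33 FPKM in Ctrl hearts against 1.12, 1.23 and 1.31 FPKM in cKO hearts (values of single hearts are given throughout in the order of replicates 1, 2 and 3; log2 fold change -1.65, SE 0.0944, limma adjusted p 0.000202). FPKM counts the fragments sequenced from a gene, divided by gene length in kilobases and by library size, and libraries held 15989322 to 24875499 reads. Differences were tested with limma on log2(FPKM + 1) in the 12944 genes whose mean reached 0.5 FPKM, with Benjamini-Hochberg adjustment over all of them and a threshold of 0.05. Cardiomyocyte markers were abundant in every heart, with Myh6 at 1692 FPKM or more, while 9 of 11 skeletal muscle markers were under a mean of 0.5 FPKM, 2 of them (Myh1 and Tnnc2) at 0 in all 6 hearts, and Myl1 was at 8.78 to 24.2 FPKM. cKO replicate 2 was the only heart in which Xist exceeded 1 FPKM and Y-linked genes were at 0, whereas the methods of the study describe male mice only. Results that rest on this heart are also given without it. Atrial markers varied from heart to heart in both groups, with a summed level of 5 genes between 28.3 and 1024 FPKM in Ctrl and between 110 and 760.5 FPKM in cKO. Over all genes tested the median difference was -0.02 on the log2 scale.

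Of the 10 members 9 could be tested. Acta1 and Acta2 were higher in cKO, Tnnt2, Tnni3 and Tnnt1 were lower, and Tnnc1, Tpm1, Tpm2 and Actc1 did not pass the test. Over all genes tested 16.3% were called higher and 17.0% lower, so that calls in this number among 9 genes are no result in themselves, and the values of the single genes follow. When libraries were scaled to their total without genes of the mitochondrial genome, the calls over all genes moved from 2110 higher and 2205 lower to 2649 higher and 1620 lower, whereas the 9 members kept their direction and their calls. The groups did not overlap for the same 5 tested members, 2 of them higher and 3 lower in cKO, where 24.8% of all genes tested were higher and 26.4% lower without overlap.

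**Figure D1:**
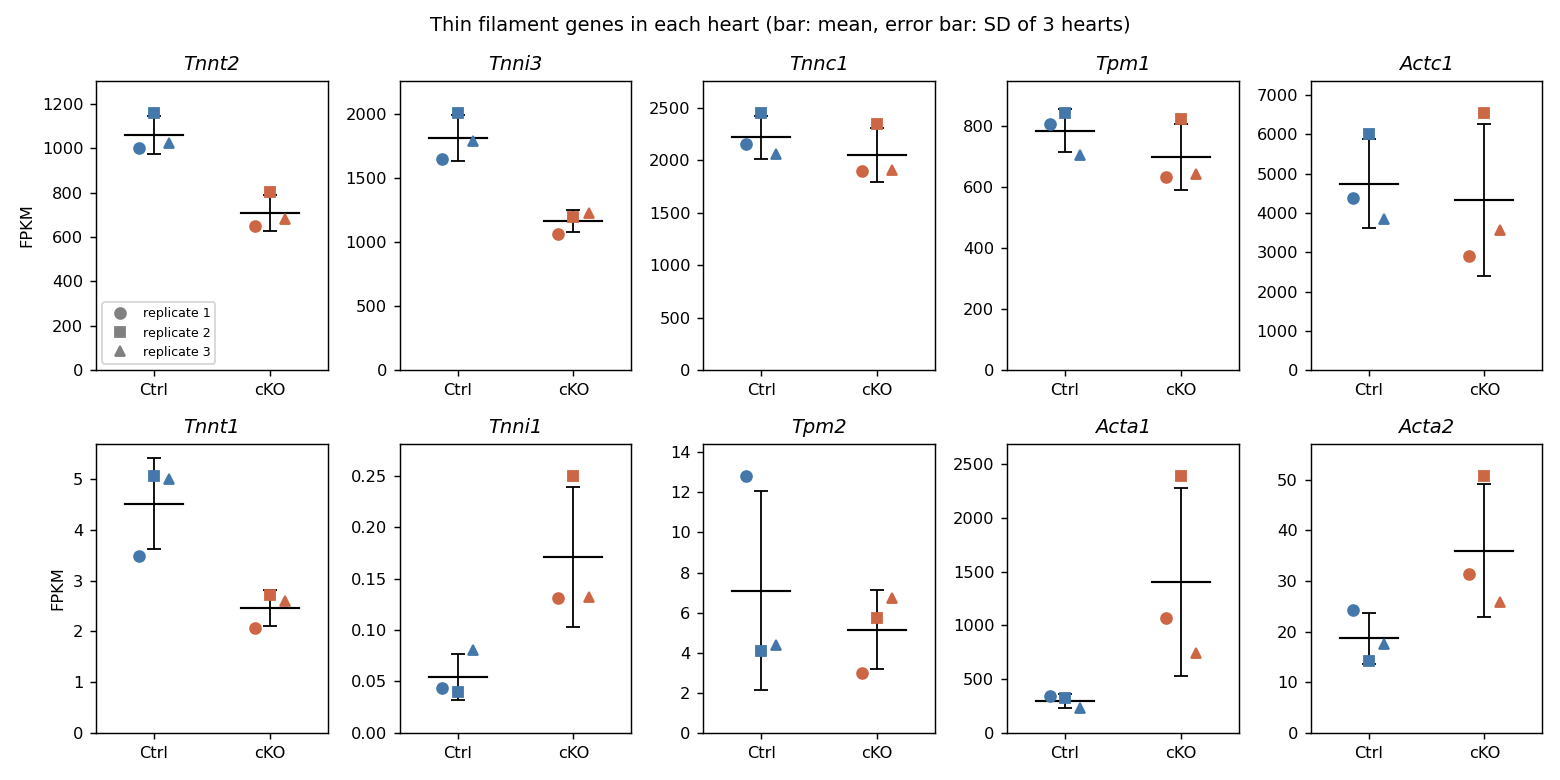
FPKM of the 10 members in each heart (points; circles, squares and triangles are replicates 1, 2 and 3), with the mean (horizontal bar) and SD (error bar) of 3 hearts per group; each panel has its own linear axis from 0. The adult isoforms are in the upper and the other isoforms in the lower panels. Ctrl and cKO hearts are separate for Tnnt2, Tnni3, Tnnt1, Tnni1, Acta1 and Acta2 and overlap for Tnnc1, Tpm1, Actc1 and Tpm2.

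Cardiac troponin T and cardiac troponin I, the tropomyosin-binding and the inhibitory subunit of the adult complex, were both lower in cKO hearts by about the same proportion. Tnnt2 (ENSMUSG00000026414, chromosome 1, 135836354 to 135852260, plus strand) measured 1000.0, 1158 and 1022 FPKM in Ctrl hearts against 648, 802 and 679 FPKM in cKO hearts. Every cKO heart lay below every Ctrl heart. The means were 1060.0 ± 85.4 and 709.9 ± 81.1 FPKM (SD, n = 3 each), so that 67.0% of the level of Ctrl hearts remained, a log2 fold change of -0.58 (95% confidence interval -0.85 to -0.32, limma adjusted p 0.00921). In bulk tissue, fewer cardiomyocytes and less of an mRNA per cardiomyocyte cannot be told apart. The summed level of 10 cardiomyocyte markers also fell without overlap, from 14034, 16405 and 14247 FPKM in Ctrl to 7749, 11401 and 9582 FPKM in cKO. Most of this sum came from Myh6, Myl2, Myl3 and Atp2a2 in every heart. Of the 10 markers 5 were called lower, against 17.0% of all genes tested, and 5 did not pass the test. The latter included Actn2 (log2 fold change -0.11, limma adjusted p 0.512) and Nkx2-5 (0.36, limma adjusted p 0.181). The part of these markers in the troponin differences was not tested.

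Tnni3 (ENSMUSG00000035458, chromosome 7, 4518305 to 4524229, minus strand) was at 1648, 2007 and 1791 FPKM in the Ctrl and at 1064, 1196 and 1229 FPKM in the cKO hearts. The highest cKO heart was well below the lowest Ctrl heart. The means were 1815 ± 181 and 1163 ± 87.4 FPKM, a log2 fold change of -0.64 (95% confidence interval -0.90 to -0.38, limma adjusted p 0.00599). Tnni3 shares positions with Dnaaf3 on the same strand, which was far lower at a mean of 2.14 FPKM.

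For troponin C, the calcium-binding subunit, no difference passed the test. Tnnc1 (ENSMUSG00000091898, chromosome 14, 31208312 to 31211729, plus strand) measured 2155, 2449.6 and 2056 FPKM in Ctrl hearts against 1896, 2349 and 1904 FPKM in cKO hearts. The groups overlapped, with cKO replicate 2 above the first and the third Ctrl heart and the other two cKO hearts below all Ctrl hearts. Its log2 fold change was -0.12 with a 95% confidence interval from -0.41 to 0.17 (limma adjusted p 0.494), an interval that still holds a decrease of moderate size, and -0.22 without cKO replicate 2 (limma adjusted p 0.180). The opposite strand at this locus carries Nisch, at a mean of 17.3 FPKM, and whether reads were counted by strand is not given in the sources used here.

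The balance within the troponin complex was therefore followed as a ratio in each heart, which does not depend on how libraries are scaled to each other. These ratios were not among the planned isoform pairs. They are formed from the same values as the single genes above and are no separate support. The FPKM ratio of Tnni3 to Tnnc1 was 0.765, 0.819 and 0.871 in Ctrl and 0.561, 0.509 and 0.646 in cKO. The ratio of Tnnt2 to Tnnc1 was 0.464, 0.473 and 0.497 in Ctrl and 0.342, 0.341 and 0.357 in cKO. Both ratios were lower in every cKO heart than in any Ctrl heart, each with an exact two-sided permutation p of 0.1, the smallest that 3 against 3 hearts allow. The ratio of Tnni3 to Tnnt2 was 1.71 ± 0.0553 in Ctrl and 1.65 ± 0.159 in cKO (SD, n = 3 each), and these values overlapped (exact permutation p 0.6). The mRNAs of the inhibitory and the tropomyosin-binding subunit were thus both lower relative to that of the calcium sensor. Both of these ratios share Tnnc1, so they are not independent, and their p values were not adjusted.

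**Figure D2:**
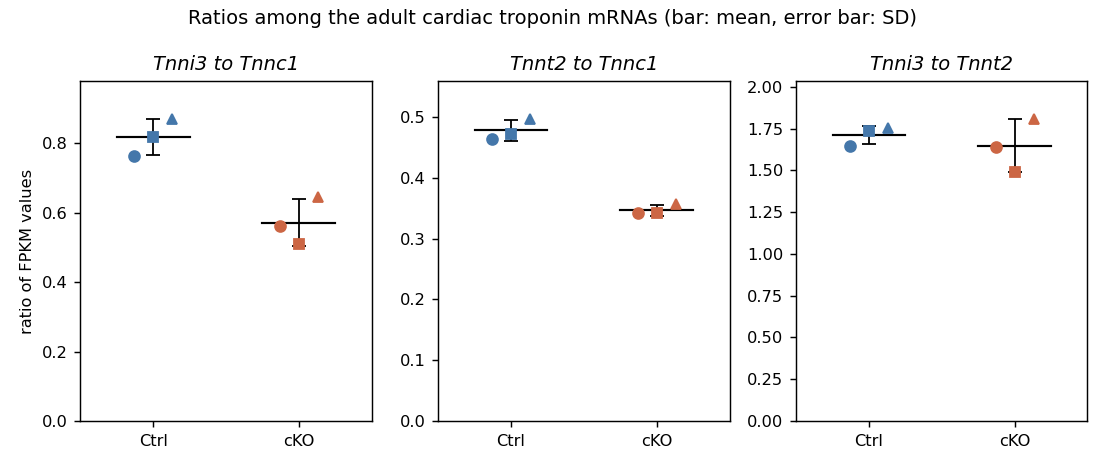
Ratio of the FPKM values of the adult troponin genes in each heart (points; circles, squares and triangles are replicates 1, 2 and 3), with the mean and SD of 3 hearts per group on linear axes from 0. Tnni3 and Tnnt2 are lower relative to Tnnc1 in all cKO hearts, while Tnni3 to Tnnt2 overlaps between the groups.

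The troponin isoforms of slow skeletal muscle were scarce beside the cardiac ones. Tnnt1 (ENSMUSG00000064179, chromosome 7, 4504570 to 4516382, minus strand) was at 3.47, 5.06 and 5.01 FPKM in Ctrl, from 146, 232 and 267 reads, and at 2.06, 2.72 and 2.60 FPKM in cKO, from 77, 140 and 144 reads. All cKO hearts were lower than all Ctrl hearts. This was a log2 fold change of -0.66 (SE 0.142, limma adjusted p 0.0132), or -0.83 when read counts were analysed with voom, since adding 1 FPKM compresses the change of a gene at this level. Tnnt1 lies 1922 bases downstream of the far more abundant Tnni3 on the same strand, and both fell. Any link between these decreases was not tested. An isoform that is not the adult one was therefore lower and not higher in cKO hearts. The expression of Tnnt1 relative to Tnnt2 was 0.347%, 0.437% and 0.490% in Ctrl and 0.318%, 0.339% and 0.382% in cKO hearts. These shares overlapped (log2 difference -0.28, exact permutation p 0.2).

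Tnni1 (ENSMUSG00000026418, chromosome 1, 135779434 to 135810989, plus strand), the troponin I of the fetal heart, was near the limit of detection. It had 3, 3 and 7 reads in the Ctrl hearts against 8, 21 and 12 reads in the cKO hearts, which are 0.0437, 0.0401 and 0.0804 FPKM against 0.131, 0.250 and 0.133 FPKM. Every cKO heart was above every Ctrl heart, and cKO replicate 2 was the highest. The gene was under the minimum of 0.5 FPKM and was not tested with the others. Without that minimum its log2 fold change was 0.15 on the log2(FPKM + 1) scale, which leaves little of any change at this level (limma adjusted p 0.101). Over the summed reads, 13 in Ctrl and 41 in cKO, the cKO level was 3.09 times that of Ctrl, with a 95% exact interval of 1.62 to 6.28 that covers counting error only and not the spread between animals. An added analysis of the reads with voom, without the minimum, gave a log2 fold change of 1.55 (SE 0.524, voom adjusted p 0.0689), and neither fit passed the threshold. Relative to Tnni3, Tnni1 amounted to 0.00265%, 0.00200% and 0.00449% in Ctrl and 0.0123%, 0.0209% and 0.0108% in cKO. These shares did not overlap (log2 difference 2.29, and 2.00 without cKO replicate 2, each with an exact permutation p of 0.1). Even in the cKO heart with the highest share, Tnni1 remained a trace beside cardiac troponin I.

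Neither tropomyosin gene passed the test. Tpm1 (ENSMUSG00000032366, chromosome 9, 67022590 to 67049406, minus strand), which gives the main cardiac tropomyosin, measured 806, 842 and 705 FPKM in Ctrl hearts against 633, 821 and 641 FPKM in cKO hearts. The groups overlapped through cKO replicate 2, which was above the first and the third Ctrl heart. Its log2 fold change was -0.17 (95% confidence interval -0.48 to 0.13, limma adjusted p 0.341), and -0.30 without cKO replicate 2 (limma adjusted p 0.0802).

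Tpm2 (ENSMUSG00000028464, chromosome 4, 43514711 to 43523765, minus strand) measured 12.8, 4.10 and 4.38 FPKM in Ctrl hearts against 2.97, 5.74 and 6.74 FPKM in cKO hearts. A single Ctrl heart, replicate 1, was above all other hearts, and without it the log2 fold change turned from -0.29 (limma adjusted p 0.628) to 0.18 (limma adjusted p 0.683). The same heart had the highest level of the atrial marker Myl7, at 679 FPKM. cKO replicate 3 followed at 495 and cKO replicate 2 at 169.7 FPKM, which was also the order of the 3 highest Tpm2 values. The order differed among the other hearts. Ctrl replicate 3 had the lowest Myl7, at 18.1 FPKM, but more Tpm2 than Ctrl replicate 2 and cKO replicate 1. The part of atrial tissue in the Tpm2 values was not tested. With the atrial score as a covariate the log2 fold change of Tpm2 was -0.47 (limma adjusted p 0.200). The ratio of Tpm2 to Tpm1 was 1.59%, 0.487% and 0.621% in Ctrl and 0.469%, 0.699% and 1.05% in cKO, with overlap (exact permutation p 0.8).

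The actins held the largest change of the thin filament. Acta1 (ENSMUSG00000031972, chromosome 8, 123891769 to 123894751, minus strand), skeletal alpha-actin, measured 347, 321 and 228 FPKM in Ctrl hearts against 1073, 2391 and 743 FPKM in cKO hearts. The lowest cKO heart had more than the highest Ctrl heart by a wide margin, and the cKO hearts also differed among themselves, with replicate 2 the highest. The means were 299 ± 62.5 and 1402 ± 872 FPKM (SD, n = 3 each). The log2 fold change was 2.07 (95% confidence interval 1.10 to 3.04), a 4.21-fold increase (limma adjusted p 0.00994), which placed Acta1 at the 99.7th percentile of all genes tested. Without cKO replicate 2 it was 1.60 (limma adjusted p 0.00642). Of 11 markers of skeletal muscle, where Acta1 is the main actin, 9 were under a mean of 0.5 FPKM. The summed level of all 11 overlapped between groups, at 10.8 to 27.3 FPKM in Ctrl and 10.5 to 25.0 FPKM in cKO. Most of this sum came from Myl1 in every heart, so it says little about the other markers. Among those, Pvalb was higher and Tnni2 lower in all cKO hearts than in all Ctrl hearts, both from few reads.

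Acta2 (ENSMUSG00000035783, chromosome 19, 34241090 to 34255336, minus strand), smooth muscle alpha-actin, measured 24.2, 14.3 and 17.5 FPKM in Ctrl hearts against 31.3, 50.8 and 25.9 FPKM in cKO hearts. The groups were separate by a small gap, between Ctrl replicate 1 and cKO replicate 3. Acta2 had a log2 fold change of 0.89 (95% confidence interval 0.24 to 1.54), a 1.85-fold increase (limma adjusted p 0.0453). This call was lost in 7 of the 15 alternatives run, among them the fit without cKO replicate 2 (log2 fold change 0.62, limma adjusted p 0.0753), with adjusted p values from 0.0246 to 0.133. Acta2 is also the actin of vascular smooth muscle and of myofibroblasts. Of 7 smooth muscle markers 6 were tested, none rose, and Synpo2, Smtn and Mylk fell, against 16.3% higher and 17.0% lower of all genes tested. Myh11, Cnn1 and Lmod1 did not pass the test (limma adjusted p 0.198, 0.734 and 0.129), and Tagln was under the minimum. The summed level of the 7 markers was 41.5, 42.0 and 42.3 FPKM in Ctrl and 21.8, 32.5 and 25.2 FPKM in cKO. Most of it came from Smtn and Synpo2 in every heart. Of 8 fibroblast markers Col3a1, Col1a1 and Postn rose, Dcn fell and 4 did not pass the test. Their summed levels were 162 to 189 FPKM in Ctrl and 163 to 195 FPKM in cKO. Dcn was the largest part of this sum in every heart, so the sum does not follow the markers that rose. Dcn measured 101, 98.2 and 112 FPKM in Ctrl and 74.7, 55.1 and 77.6 FPKM in cKO. Col3a1 measured 9.23, 8.72 and 10.3 FPKM in Ctrl and 32.5, 39.8 and 20.5 FPKM in cKO. The part of the smooth muscle and fibroblast markers in the Acta2 difference was not tested.

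Actc1 (ENSMUSG00000068614, chromosome 2, 114047282 to 114053548, minus strand), the main actin of the adult heart, whose promoter window holds a CArG box as that of Acta1 does, measured 4391, 6014 and 3846 FPKM in Ctrl hearts against 2904, 6542 and 3562 FPKM in cKO hearts. It spread widely within both groups, and cKO hearts held both the lowest and the highest value. Its log2 fold change was -0.20 (95% confidence interval -0.94 to 0.55, limma adjusted p 0.664), 0.049 without cKO replicate 1 and -0.54 without cKO replicate 2 (limma adjusted p 0.925 and 0.105). A decrease or an increase of moderate size was not detectable at this spread.

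**Figure D3:**
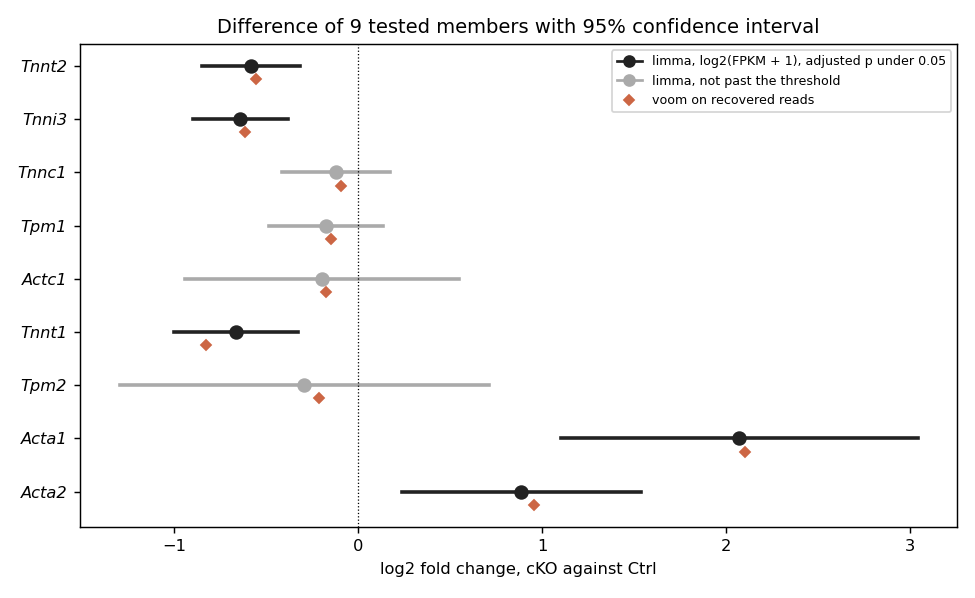
Log2 fold change of cKO against Ctrl for the 9 tested members: circles with 95% confidence intervals are from limma on log2(FPKM + 1), black for an adjusted p under 0.05 and grey otherwise, and diamonds are from voom on recovered reads. Acta1 (2.07) and Acta2 (0.89) lie to the right of 0 and Tnnt2, Tnni3 and Tnnt1 to the left, and the intervals of Actc1 and Tpm2 are wide.

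The composition of the muscle actin pool was then compared. Acta1 made up 7.28%, 5.06% and 5.57% of the summed FPKM of the 3 actin genes in Ctrl and 26.8%, 26.6% and 17.2% in cKO. The share was higher in all cKO hearts, at a mean of 23.5% ± 5.51 against 5.97% ± 1.16 (SD, n = 3 each, exact permutation p 0.1). Actc1 took most of the remainder, at 93.6% ± 1.29 in Ctrl and 75.8% ± 5.55 in cKO, and Acta2 stayed under 1% in every heart. The summed actin level itself was 5067 ± 1159 FPKM in Ctrl and 5774 ± 2785 FPKM in cKO and overlapped (exact permutation p 0.9), also without cKO replicate 2 (mean of cKO 4169 FPKM, exact permutation p 0.4). The difference lay in the mixture of isoforms, and none was detectable in their sum at this spread.

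As a ratio to Actc1, Acta1 was at 7.90%, 5.34% and 5.93% in Ctrl and 37.0%, 36.5% and 20.9% in cKO, a 4.83-fold difference. The ratio of cKO replicate 2 was close to that of cKO replicate 1, although both of its actin levels were the highest of all hearts. Acta2 relative to Actc1 was at 0.552%, 0.237% and 0.454% in Ctrl and 1.08%, 0.776% and 0.728% in cKO, a 2.17-fold difference. Neither ratio overlapped between groups, and each gave an exact permutation p of 0.1 and an adjusted p of 0.167 over the 5 isoform pairs, since 3 of the 5 pairs reached the smallest p that 3 against 3 hearts allow. Without cKO replicate 2 the log2 differences were 2.14 for Acta1 and 1.18 for Acta2 (exact permutation p 0.1 and 0.2), against 2.27 and 1.12 with it. Both pairs share Actc1 and are not independent. Of the 5 pairs of a fetal or skeletal isoform to its adult partner, Acta1 to Actc1, Acta2 to Actc1 and Tnni1 to Tnni3 were separate and higher in cKO, while Tnnt1 to Tnnt2 and Tpm2 to Tpm1 overlapped.

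**Figure D4:**
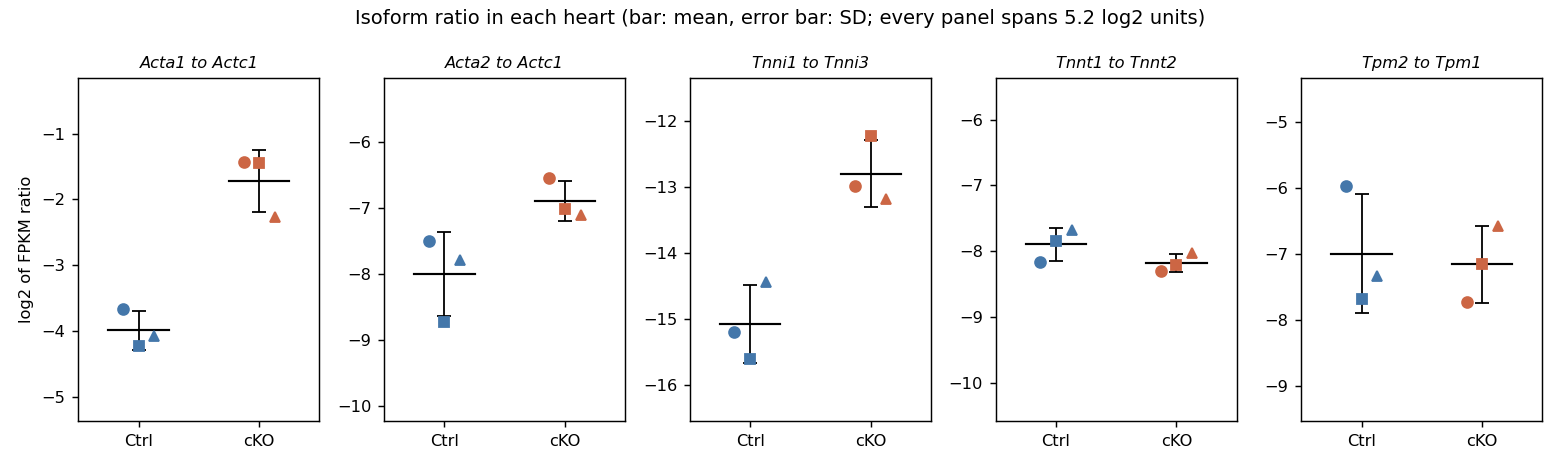
Log2 of the FPKM ratio of each fetal or skeletal isoform to its adult cardiac partner in each heart (points; circles, squares and triangles are replicates 1, 2 and 3), with the mean and SD of 3 hearts per group; all axes span the same number of log2 units. Ratios to Actc1 and of Tnni1 to Tnni3 are separate between groups, and those of Tnnt1 to Tnnt2 and Tpm2 to Tpm1 overlap.

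The order of the levels between genes depended on the gene length used. By the deposited values Actc1 was the most abundant member, followed by Tnnc1, Tnni3, Tnnt2 and Tpm1, all far above Acta1 in Ctrl hearts. Neighbours in this order did not overlap across the Ctrl hearts. By the same values Acta1 exceeded Tnnt2 and Tpm1 in each cKO heart, Tnni3 narrowly in replicate 1 and clearly in replicate 2, and Tnnc1 in replicate 2. The length in the table was 7752 bases for Tnnt2, 6.46 times its principal coding transcript of 1200 bases, and 6485 bases for Tpm1 (3.42 times), against 1.10 times for Actc1 and 1.06 times for Acta1. Per kilobase of the principal transcript, Tnnt2 came to 6847 ± 552 in Ctrl hearts, above Actc1 at 5218 ± 1239, with overlapping values. On this scale Acta1 was at 1140, 2540 and 789 in cKO hearts. It was then below Tnnt2, Tnni3, Tnnc1 and Tpm1 in each of them. This choice moves levels between genes and leaves each gene's difference between groups as it is.

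Members of a family could in principle exchange reads. The coding sequences of Acta1 and Actc1 were identical at 86.3% of 1131 bases, those of Acta2 and Actc1 at 82.6% and those of Tpm1 and Tpm2 at 74.3% of 852 bases. No stretch of 150 bases in the principal transcript of any member was present in a transcript of another gene. Reads that span less, or hold sequence errors, were not examined here.

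Other isoform genes of the thin filament were tested beside the members. Of 8 further troponin, tropomyosin and actin genes 5 were tested, of which 1 was higher and 1 lower, close to the 16.3% and 17.0% of all genes. Their median log2 fold change was 0.16. The cytoplasmic actin Actb was higher (0.47, limma adjusted p 0.0387, and 0.35 with adjusted p 0.0713 without cKO replicate 2) and Tnni2, fast skeletal troponin I, was lower (-0.51, limma adjusted p 0.0254), and 3 did not pass the test. Tnni2 was near the limit of detection, with 31, 21 and 22 reads in Ctrl hearts and 5, 14 and 6 reads in cKO hearts. Its mean over all hearts was 0.521 FPKM, so that it reached the minimum of 0.5 FPKM only through the Ctrl hearts. Over the alternatives the adjusted p reached 0.119 for Actb and 0.0750 for Tnni2. Actb has near-identical copies elsewhere in the genome, and its value is uncertain to the extent that reads were split among them.

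Genes that set the length and the assembly of actin filaments were called about as often as genes in general. Of 30 listed genes 29 were tested, of which 6 (20.7%) were higher and 5 (17.2%) lower, against 16.3% and 17.0% of all genes tested, and 18 were not called. Their median log2 fold change was -0.05, and 5 were higher and 6 lower without cKO replicate 2. The single genes with the largest differences follow. Xirp2, an actin-binding protein of the intercalated disc, rose from 52.8, 59.7 and 38.6 FPKM in Ctrl to 224, 304 and 159 FPKM in cKO (log2 fold change 2.14, limma adjusted p 0.00209). Its cKO hearts took the same order as for Acta1. Wdr1, a cofactor of cofilin in filament disassembly (0.95, limma adjusted p 0.0160), Cfl1, the non-muscle cofilin (0.89, limma adjusted p 0.00235), and Xirp1 (0.86, limma adjusted p 0.0407) were the next largest increases. Xirp1 lost its call without cKO replicate 2 (0.61, limma adjusted p 0.0684). On the lower side, Tmod4, a tropomodulin that caps pointed ends, fell from 10.5, 12.2 and 8.40 to 4.54, 4.02 and 4.40 FPKM (-1.08, limma adjusted p 0.00202). Fhod3, a formin needed to maintain cardiac thin filaments, fell by 0.93 and Lmod2, a leiomodin that elongates them at pointed ends, by 0.89 on the log2 scale (limma adjusted p 0.00296 and 0.00287). Lmod2 measured 284, 331 and 332 FPKM in Ctrl hearts against 152, 163 and 196 FPKM in cKO hearts. Daam1, another formin, fell by 0.45 (limma adjusted p 0.0156). Tmod1, the main tropomodulin of cardiac muscle, was among the 18 genes not called. Over the alternatives the adjusted p reached 0.0544 for Wdr1, 0.109 for Xirp1 and 0.0554 for Daam1.

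**Figure D5:**
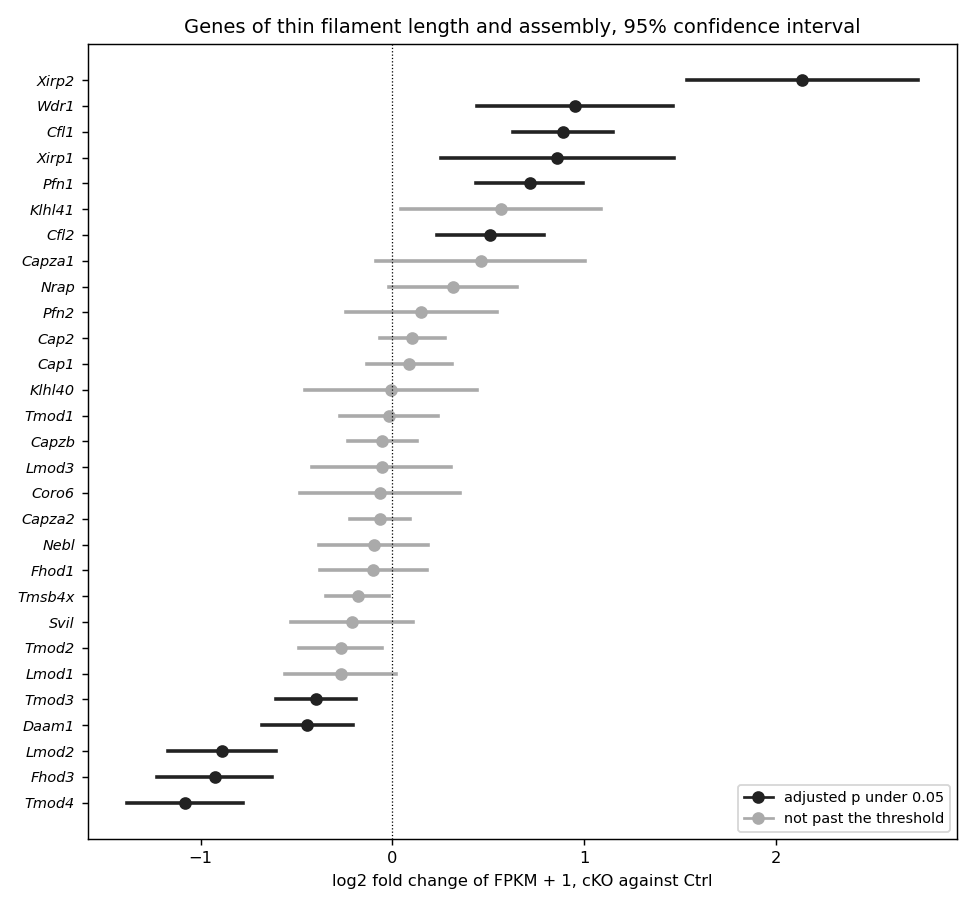
Log2 fold change of FPKM + 1, cKO against Ctrl, of the 29 tested genes of thin filament length and assembly, with 95% confidence intervals (black, limma adjusted p under 0.05; grey, not past the threshold). Xirp2 (2.14) stands to the right of all others, and Lmod2, Fhod3 and Tmod4 form the lower end.

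Of 19 genes that control transcription or splicing of sarcomere genes, 2 (10.5%) were higher and 3 (15.8%) lower, both under the 16.3% and 17.0% of all genes tested, and 14 were not called, with a median log2 fold change of 0.06. Ankrd1, a stress-responsive ankyrin repeat protein of the sarcomere and nucleus, measured 837, 573 and 300.5 FPKM in Ctrl hearts against 1596, 3620.0 and 1594 FPKM in cKO hearts (log2 fold change 2.00, limma adjusted p 0.0156, and 1.60 with adjusted p 0.0292 without cKO replicate 2). The LIM domain proteins Fhl1 and Fhl2 moved in opposite directions: Fhl1 rose from 50.7, 37.3 and 40.4 to 249.7, 369 and 139.9 FPKM (2.44, limma adjusted p 0.00290), whereas Fhl2 fell from 574, 613 and 743 to 216, 425 and 318 FPKM (-1.05, limma adjusted p 0.0165). Among splicing regulators Rbfox1 fell from 6.47, 9.10 and 7.95 to 1.29, 1.25 and 1.74 FPKM (-1.86, limma adjusted p 0.000495) and Rbm20 by 0.40 on the log2 scale (limma adjusted p 0.0348). Srf, the serum response factor that binds CArG boxes, measured 36.6, 34.9 and 32.2 FPKM in Ctrl hearts against 40.6, 45.6 and 37.5 FPKM in cKO hearts, without overlap between the groups. Its log2 fold change of 0.24 did not pass the test (limma adjusted p 0.0887), and passed it in 1 of 15 alternatives, scaling without genes of the mitochondrial genome (range 0.0346 to 0.238). Splice forms of Tnnt2 and Tpm1 cannot be read from values per gene. Over the alternatives the adjusted p reached 0.0504 for Ankrd1, 0.0582 for Fhl2 and 0.105 for Rbm20.

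The genes whose levels followed a member most closely over the 6 hearts were ranked by Pearson's r among 5504 protein-coding genes averaging 5 FPKM or more. For Acta1 they were Myo9b and Tomm40 (r of 0.996 each), Polr1e, Wdr1 and Dnaja4 (0.992 each). Each had all cKO hearts above all Ctrl hearts and its highest value in cKO replicate 2, a pattern set by the choice for likeness to Acta1. Myo9b and Polr1e were under 5 FPKM in every Ctrl heart and reached the minimum mean only through the cKO hearts. For Actc1 they were Unc45b (0.978), a myosin chaperone, Actn2 (0.977), the Z-disc protein that anchors thin filaments, Coro6 (0.975), Akap6 (0.970) and Lmod3 (0.968), a further leiomodin. These correlations describe 6 libraries that fall into 2 groups and carry no test.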

How the data were processed

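RNA of 3 Ctrl and 3 cKO hearts was compared, with groups and replicate numbers taken from the sample titles. The methods describe the tissue as ventricular and the mice as 12-week-old. The labels, which were followed here, give 12 weeks after tamoxifen at 8 weeks of age. The authors made poly-A selected paired-end libraries, and per the labels the reads were aligned with HISAT2 2.0.5 and counted with featureCounts 1.5.0-p3, and differential expression was run with DESeq2 1.16.1. The deposited values are FPKM, computed by the authors from the read count and the length of the gene, and the deposited table also gives gene length and position as other, gene-level entries. The submitters' processing notes name the build mm9, but 53499 of 54409 gene identifiers shared with GENCODE mouse release M21 had identical start and end there, so coordinates are those of GRCm38. FPKM multiplied by length came out as whole reads, within 0.01 of a read, for 100% of values, and no columns held the same values.

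The fit used limma 3.58.1 in R 4.3.3 (lmFit, eBayes with trend, two-sided) on log2(FPKM + 1) without covariates, which understates changes of genes with low values. Isoform ratios and shares were compared by exact permutation over hearts, two-sided. Only the 5 isoform pairs were planned and adjusted, and the troponin ratios and the shares were not. Errors given as ± are SD over 3 hearts. Alternatives were a pseudocount of 0.1 FPKM, no minimum or one of 1 FPKM, median-of-ratios scaling, scaling without genes of the mitochondrial genome, eBayes without trend, voom on the recovered reads (2351 genes higher and 2150 lower), the replicate number as a block, an atrial covariate (mean of Myl7, Myl4 and Sln) and leaving out each heart. Chosen after seeing the data were voom without a minimum for Tnni1, levels per principal transcript, and shares and further list genes without cKO replicate 2. All members are described, and of each further list up to 4 called genes per direction with the largest changes. The members and lists were chosen with earlier results of these data known. Protein sequences were not used here.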

Additional observations from a re-analysis of the deposited data

How the results depend on the processing

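Of 135 comparisons of a tested member under an alternative, 126 kept direction and side of the threshold, and Tnnt2, Tnni3, Tnnt1 and Acta1 kept their calls in 15 of 15. All 7 lost calls were of Acta2: without a minimum (log2 fold change 0.89, limma adjusted p 0.113), with the atrial covariate (0.87, limma adjusted p 0.0749), with the replicate number as a block (0.89, limma adjusted p 0.0720) and without Ctrl replicate 2, Ctrl replicate 3, cKO replicate 1 or cKO replicate 2, over which, leaving out each heart, it ranged from 0.62 to 1.09. The cause was not tested. Actc1 turned to 0.049 without cKO replicate 1 (range over single hearts left out -0.54 to 0.049) and Tpm2 to 0.18 without Ctrl replicate 1 (-0.54 to 0.18). The log2 ratio of Tpm2 to Tpm1, -0.16 over all hearts, turned to 0.35 without Ctrl replicate 1 and 0.13 without cKO replicate 1 (range -0.50 to 0.35). With 0.1 FPKM added, the log2 difference of Tnni1 to Tnni3 was 1.43 in place of 2.29.

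Leaving out 1 heart left 1400 to 1993 genes higher and 1434 to 2006 lower, in place of 2110 and 2205. The lowest counts were 1400 higher and 1450 lower without Ctrl replicate 3, and 1434 lower without Ctrl replicate 2, with fewer samples in the fit. Same-numbered hearts were different animals whose deviations correlated at -0.06, 0.17 and -0.01 for numbers 1, 2 and 3, and only number 2 matched its own best. The replicate block gave 1874 higher and 1982 lower genes and changed no call of a member other than Acta2.

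With 3 hearts per group, 0.1 was the smallest exact permutation p for any ratio or share. Tnni1 rested on 3 to 21 reads per heart. Values per gene hold no splice forms, and no protein was measured in these data.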

Other observations

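The other cell type markers of the hearts moved in several directions. Of 10 cardiomyocyte markers 5 fell, 5 did not pass the test and none rose, with a median log2 fold change of -0.60, and without cKO replicate 2 there were 8 lower and 1 higher. Of 4 endothelial markers 3 fell (4 without cKO replicate 2), with a median of -0.61, and their summed level was 119, 103 and 119 FPKM in Ctrl and 67.6, 80.0 and 73.4 FPKM in cKO hearts without overlap. Of 3 macrophage markers 1 fell and 2 did not pass the test. None of the 5 atrial markers passed the test. These calls are from limma at an adjusted p under 0.05, against 16.3% of all genes higher and 17.0% lower.

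The 10 thin filament genes together took 3.83%, 4.40% and 3.52% of all FPKM outside the mitochondrial genome in Ctrl and 3.18%, 5.32% and 3.37% in cKO. The groups overlapped (exact permutation p 1) through cKO replicate 2 alone, which had the highest share. Without that heart both cKO hearts lay below all Ctrl hearts, at a mean of 3.28% (exact permutation p 0.2). Acta1 alone took 0.128%, 0.110% and 0.0830% in Ctrl and 0.414%, 0.898% and 0.285% in cKO, without overlap (exact permutation p 0.1).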
